A study of Mus musculus with 4 samples.

Results

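The genes described here are 43 genes of DNA replication and S phase, measured in activated lung ILC2s cultured with or without the Orai channel blocker compound 5D. A gene was included when its name in the deposited table was one of a list of symbols for origin licensing, helicase activation, the sliding clamp and its loader, polymerases and primase, single-strand binding and Okazaki fragment joining, nucleotide supply, and G1/S control. All 43 symbols were found among the 22554 genes of the table, and all 43 passed the filter on low counts. Group 2 innate lymphoid cells (ILC2s) are lineage-negative lymphocytes of mucosal tissue that make type 2 cytokines and carry no antigen receptor. They were sorted from the lungs of BALB/c mice 6 weeks old and kept in culture with IL-2, IL-7 and IL-33 in every well, overnight by the labels and for a full day by the paper. The vehicle group (labelled Control, 2 libraries) received vehicle and the 5D group (2 libraries) received compound 5D, a small molecule that blocks store-operated calcium entry through the Orai channels. Cells without IL-33 and freshly sorted cells were not analysed here, so the levels are those of cytokine-stimulated cells only. Neither the dose of 5D nor whether the 2 libraries of a group came from separate mice, pools or wells was given in the labels, so p-values measure only the spread between these libraries, which may be technical.

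DNA replication begins when the origin recognition complex, with CDC6 and CDT1, loads the ring-shaped MCM helicase onto DNA in G1. At the start of S phase CDC45 and the GINS complex join the ring and unwind the DNA, RPA coats the exposed single strands, primase starts each new strand, and polymerases delta and epsilon extend it while held by the sliding clamp PCNA. ILC2s divide when given IL-33 with IL-2 and IL-7, and many genes of this machinery are transcribed under the E2F factors as a cell passes from G1 into S phase.

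The promoter stretches that follow show E2F-type motifs, a sequence feature that the choice of members did not use. RefSeq promoter windows of GRCm38.p6 (mm10), from 250 bases before to 50 bases after a transcription start, were at hand for 35 of the 43 genes, and those of Gins1, Gins2, Gins4, Mcm4, Rfc2, Pole, Prim2 and Ccne2 were not analysed here. The windows were searched on both strands for TTTCCCGC, TTTGGCGC, TTTCGCGC and TTTGCCGC, and overlapping matches were each counted. A match was found in 14 of 35 genes (40.0%), against 704 of 27025 genes (2.6%) in all promoter windows of the same length. The 14 genes were Mcm3, Mcm5, Mcm6, Mcm7, Cdc6, Cdt1, Orc1, Gins3, Rfc3, Pola1, Pole2, Pold1, Lig1 and Uhrf1. Within 100 bases before the start the share was 4 of 35 (11.4%), against 0.981% of all genes. Of the other replication and G1/S genes, 19 of 62 with a window (30.6%) held a match, and of the mitosis genes 3 of 35 (8.57%). None of the windows of Rrm1, Rrm2, Tyms and Tk1, the nucleotide supply genes, held these letters, which says nothing about the factor. One stretch is printed for each role that had a match, from the gene with the highest level per kilobase, 5′ to 3′ on the gene's strand, with the matched letters in capitals.
Mcm5: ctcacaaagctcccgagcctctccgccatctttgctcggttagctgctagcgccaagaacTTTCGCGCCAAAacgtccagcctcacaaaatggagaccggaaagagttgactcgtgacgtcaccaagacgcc
Uhrf1: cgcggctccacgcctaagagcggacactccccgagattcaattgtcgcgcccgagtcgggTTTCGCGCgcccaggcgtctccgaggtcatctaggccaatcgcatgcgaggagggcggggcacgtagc
Lig1: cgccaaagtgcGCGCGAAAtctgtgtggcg
Pold1: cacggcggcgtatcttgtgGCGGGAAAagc
Rfc3: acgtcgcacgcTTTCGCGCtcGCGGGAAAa
Gins3: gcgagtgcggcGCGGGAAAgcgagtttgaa
The Mcm5 stretch (chr8:75109296-75109427, plus strand) lies before the gene and holds 2 matches that share bases, 1 on each strand. The Uhrf1 stretch (chr17:56304068-56304195, plus strand) lies before the RefSeq start, inside the gene's GENCODE span and in none of its exons. The Lig1 (chr7:13278841-13278870, plus strand), Pold1 (chr7:44548766-44548795, minus strand) and Gins3 (chr8:95633507-95633536, plus strand) stretches lie inside the gene's GENCODE span and in annotated exons. Each is cut to 30 bases around its match. Whether these exons begin a transcript was not checked. The Rfc3 stretch (chr5:151651200-151651229, minus strand) spans the RefSeq start within annotated GENCODE exons and holds 2 matches, 1 on each strand. A match is a run of letters, and binding of a factor was not measured here.

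The 4 libraries held 20096555 to 28697265 counts, and a member had between 498 and 33979 counts in a library. The unit of level is normalized CPM, a count scaled to its library's total, itself corrected by an upper quartile factor. All 15 ILC2 markers were detected, with a summed level of 13220 and 13130 CPM with vehicle and of 12300 and 12850 CPM with 5D. An unadjusted p under 0.05 by edgeR's quasi-likelihood test was reached by 4 of the 15 in the lower and by 1 in the higher direction. Of all tested genes, 3.84% were lower and 3.5% higher at that p. The lowest adjusted p of a marker was 0.0878 by the same test. The markers of other cell types (26 of 34 analysed) summed to between 80.9 and 87.6 CPM, and 7 of them, Cd4, Csf1r, S100a8, Mcpt4, Scgb1a1, Col3a1 and Pdgfra, had at most 3 counts in every library. Most of the sum came from Cd3g (21.6 to 24.6 CPM), Epcam (25.5 to 27.7 CPM) and Pecam1 (15.7 to 23.7 CPM), which are near the level of the lowest members. The part of these cell type markers in the results was not tested.

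The replication genes stood at nearly the same level with 5D as with vehicle. Of the 43 genes, 33 had a log2 fold change above 0 and 10 below, with a median of 0.041 and a range from -0.04 to 0.17. The number above 0 was 30 when upper quartile factors were computed after filtering, 35 with TMM factors and 38 with GC and length offsets. In edgeR's quasi-likelihood fit, with p-values adjusted by Benjamini-Hochberg across 17650 tested genes, 0 members passed an adjusted p-value of 0.05, and the lowest adjusted p was 0.478. DESeq2 and limma-voom also called 0 members. At an unadjusted p under 0.05, 1 member was higher, Uhrf1, and 0 were lower, where 3.5% of all tested genes were higher and 3.84% lower. The share of all tested genes with an adjusted p under 0.05 was 0.0963%, which is 17 genes. Both 5D libraries lay above both vehicle libraries in 15 of 43 members (34.9%), against 18.7% of all tested genes, and below them in 0 members, against 18.8% of all tested genes. Among the 6519 tested genes at or above the lowest level of a member, 20.8% lay above and 19.2% below without overlap, 51.6% had a log2 fold change above 0, and the median was 0.0035.

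**Figure D1:**
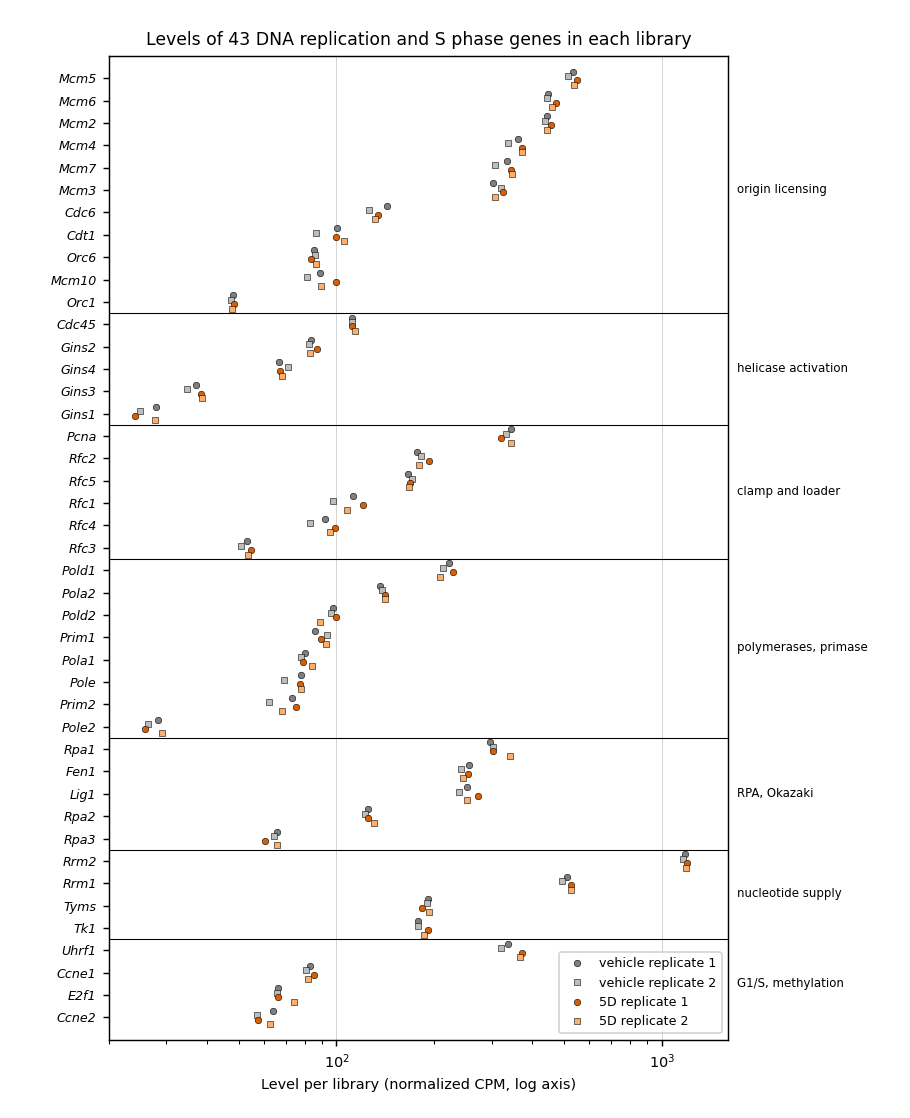
Level of each of the 43 genes in each of the 4 libraries, in normalized CPM on a log axis, grouped by role and ordered within a role by the vehicle mean. The 4 points of a gene lie close together, from about 25 CPM for Gins1 to 1160 to 1193 CPM for Rrm2, and the order of the genes is much the same in every library.

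The intervals set a limit on the difference between these libraries, on the relative scale of normalized CPM. They rest on the spread between the libraries, which may be technical. Of the 11.4 degrees of freedom of each test, 9.374 came from the fit across all genes. Whether the limit holds for other cultures was not tested. The 95% confidence interval of the fold change lay within 1.5-fold in either direction for 43 of 43 genes and within 1.25-fold for 42 of 43, the exception being Mcm10 with an upper bound of 1.25 that just passed it. The lowest bound was 0.814-fold, for Gins1. Standard errors of the log2 fold change ran from 0.035 for Rrm2, the most abundant member, to 0.12 for Gins1, one of the least abundant. Relabelling 2 against 2 libraries exactly allows no permutation p under 0.333, so no such test was made. In RNA from a whole culture, the share of cells in S phase and the amount of these RNAs per cell cannot be told apart.

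**Figure D2:**
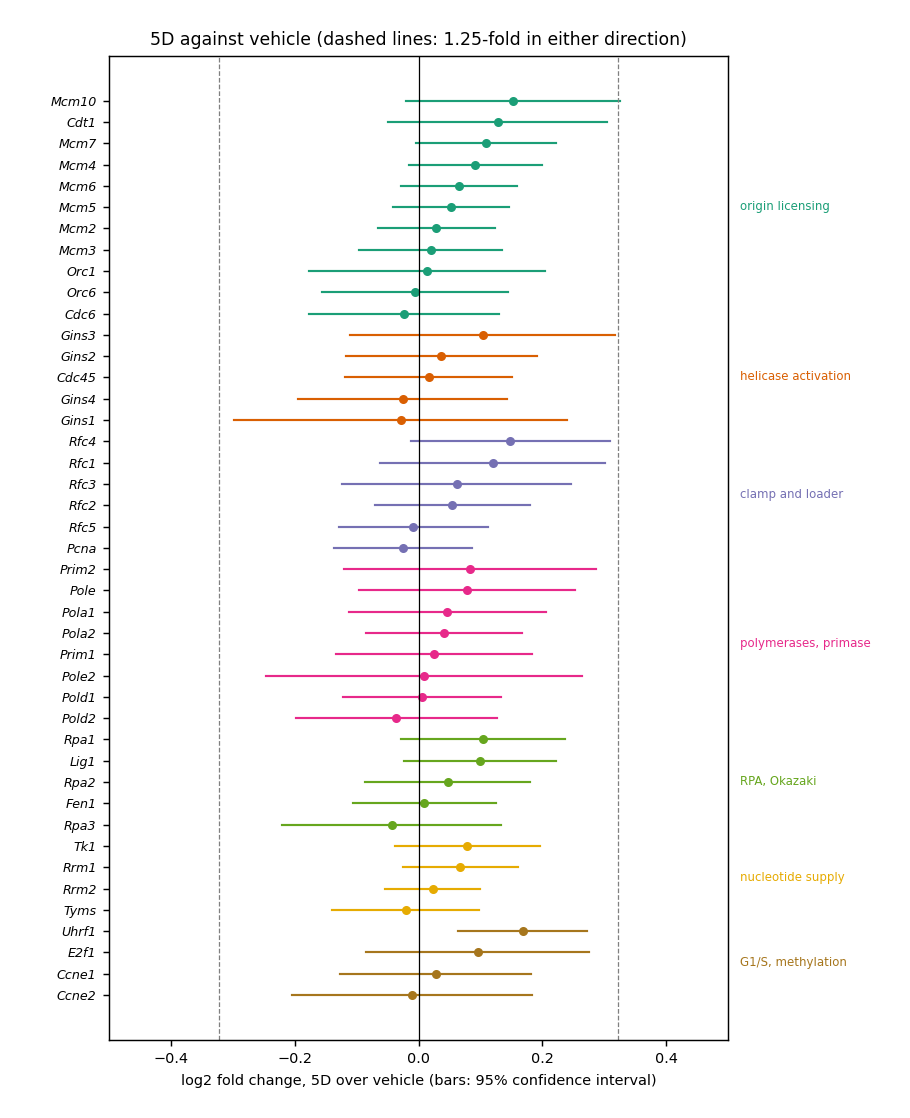
Log2 fold change of 5D over vehicle for each of the 43 genes (points) with 95% confidence intervals (bars) from edgeR's quasi-likelihood fit of 2 vehicle and 2 5D libraries, grouped by role, with dashed lines at a change of 1.25-fold in either direction. The interval of Uhrf1 alone stays clear of 0, and 42 of 43 intervals lie between the dashed lines.

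The median log2 ratio of 5D over vehicle was close to that between the vehicle libraries and larger than that between the 5D libraries. The level was higher in vehicle replicate 1 than in vehicle replicate 2 in 35 of 43 members, against 49.7% of all tested genes, with a median log2 ratio of 0.045 over the members. Vehicle replicate 2 was the lowest of the 4 libraries in 27 members, vehicle replicate 1 in 7, 5D replicate 1 in 7 and 5D replicate 2 in 2. Between the 5D libraries, 24 of 43 members were higher in replicate 1, with a median log2 ratio of 0.0056. Without vehicle replicate 2, 29 members had a log2 fold change above 0, and the median of all members was 0.021. Without vehicle replicate 1 the values were 34 members and 0.063. In 9 of 43 genes (Mcm5, Mcm6, Gins3, Rfc3, Rfc4, Pola2, Rrm1, Tk1 and Uhrf1) the difference of the group means was larger than the range within either group. How many of all tested genes met this was not counted, so 9 of 43 cannot be set against a background. Of all tested genes, 18.7% lay higher and 18.8% lower with 5D without overlap, a weaker condition.

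**Figure D3:**
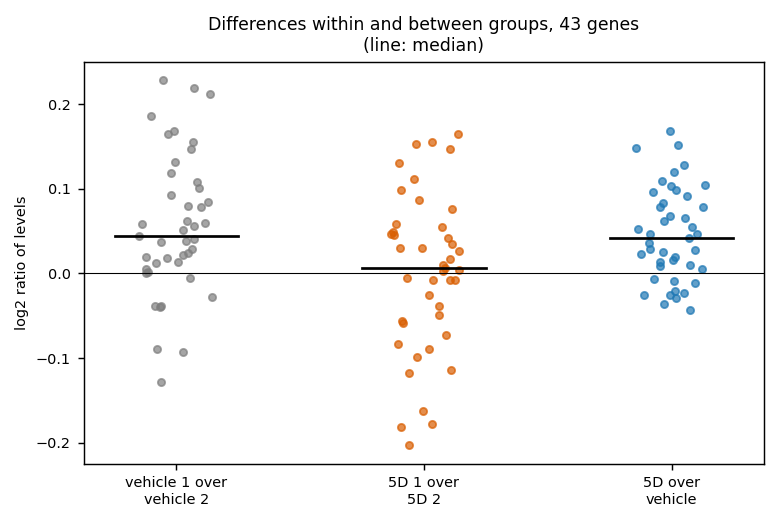
Log2 ratios of level for the 43 genes (points, with the median as a line) between the 2 vehicle libraries, between the 2 5D libraries, and between 5D and vehicle. The median of vehicle replicate 1 over vehicle replicate 2 (0.045) is as far from 0 as that of 5D over vehicle (0.041), and 5D over vehicle, a ratio of means, spans only -0.04 to 0.17.

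The MCM2-7 ring, the core of the replicative helicase, was abundantly transcribed in every library. Its 6 subunit genes summed to 2421 and 2363 CPM with vehicle and to 2523 and 2464 CPM with 5D. The 5D mean was 4.24% higher and the groups did not overlap. Of single tested genes 18.7% lay higher without overlap, and how often sums of other gene groups do so was not counted. Mcm5 (chr8:75109569-75128439, plus strand, mm10) was the most abundant of the 6, at 532 and 514 CPM with vehicle and 549 and 536 CPM with 5D. Its 4 values followed those of the ring as a whole, with a log2 fold change of 0.05 ± 0.04 (SE) and an unadjusted p of 0.243 by edgeR's quasi-likelihood test. Mcm6 (chr1:128331590-128359664, minus strand) stood at 446.5 and 445 CPM with vehicle and at 474 and 459 CPM with 5D. The vehicle libraries were almost equal here and both 5D libraries lay above them, with a log2 fold change of 0.07 ± 0.04 (SE) and an unadjusted p of 0.154 by the edgeR test. Mcm4 (chr16:15623897-15637400, minus strand) was at 362 and 337 CPM with vehicle and at 373 and 372 CPM with 5D, which gave a log2 fold change of 0.09 ± 0.05 (SE) and an unadjusted p of 0.0871 by the edgeR test.

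Mcm7 (chr5:138164583-138172422, minus strand), whose subunit sits beside MCM3 in the ring, read 334 and 307 CPM with vehicle and 345 and 347 CPM with 5D. It had the highest log2 fold change of the ring, 0.11 ± 0.05 (SE). Its unadjusted p was 0.0572 and its adjusted p 0.688 by edgeR's quasi-likelihood test. It passed an unadjusted 0.05 under TMM factors, limma-voom, no filter, thinning, the replicate block and GC and length offsets. The DESeq2 Wald test, DESeq2 size factors, upper quartile factors after filtering and filterByExpr left it above 0.05. Its log2 fold change was 0.0483 without vehicle replicate 2 and 0.1669 without vehicle replicate 1. For Mcm2 (chr6:88883474-88898780, minus strand) the values were 444 and 438 CPM against 456 and 443.5 CPM, and its groups overlapped (log2 fold change 0.03 ± 0.04 (SE), unadjusted p of 0.519 by the edgeR test). Mcm3 (chr1:20802968-20820312, minus strand) gave 302 and 322 CPM with vehicle and 326 and 307 CPM with 5D, so that each group held 1 high and 1 low library (log2 fold change 0.02 ± 0.05 (SE), unadjusted p of 0.715 by the edgeR test). The adjusted p-values of the other 5 ring genes lay at 0.747 for Mcm4 and above. Gm5487, a near-identical copy of Mcm7 elsewhere in the table, took 0.988% to 1.21% of the counts of the pair, and reads could be split between them.

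The loading factors and the other genes listed under licensing were less abundant than the ring. Mcm10, which stabilizes the helicase and helps to bring in polymerase alpha, was at 89.1 and 81.3 CPM with vehicle and at 99.8 and 89.7 CPM with 5D, the second highest log2 fold change of the 43 (0.15 ± 0.08 (SE)). The lower 5D library stood only just above the higher vehicle library. Cdt1, the licensing factor that is destroyed in S phase, was at 101 and 86.5 CPM with vehicle and at 99.4 and 105 CPM with 5D. Vehicle replicate 2 was the low library for both genes. Cdc6, the ATPase that works with CDT1 in loading the ring, was at 143 and 126 CPM with vehicle and at 134 and 131 CPM with 5D, with both 5D values between the vehicle values. Orc1, the largest subunit of the origin recognition complex, was at 48.1 and 47.3 CPM with vehicle and at 48.6 and 47.7 CPM with 5D. For Orc6, its smallest subunit, the levels were 85.5 and 85.8 CPM against 83.8 and 86.7 CPM. The groups of both Orc genes overlapped. Of the 11 genes listed under licensing, Mcm10 among them, 9 had a log2 fold change above 0 and the median was 0.05. Under the edgeR test 0 of the 11 passed either threshold of p. Orc6, at -0.01, changed sign with TMM factors and with GC and length offsets.

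Helicase activation needs CDC45 and the 4 GINS subunits, which turn the loaded ring into an active helicase. Cdc45 was at 112 CPM in both vehicle libraries and at 111 and 114 CPM with 5D. Gins2 was at 83.2 and 82.5 CPM with vehicle and at 87.2 and 82.7 CPM with 5D. Reads of the antisense partner of Gins2, Gse1, whose counts were 19.3% to 24.5% of the pair, cannot be separated from it without strand. Of all tested genes, 18.7% lay higher without overlap between the groups, and of the 5 only Gins3 did. Gins3 was at 36.9 and 34.6 CPM with vehicle and at 38.4 and 38.5 CPM with 5D. Its vehicle values lay further apart than its 5D values. Gins4 was at 66.6 and 71.0 CPM with vehicle and at 66.99 and 68.2 CPM with 5D, and Gins1 at 27.9 and 24.9 CPM with vehicle and at 24.1 and 27.7 CPM with 5D. The 5D values of Gins4 lay between its vehicle values, while Gins1 had 1 5D value between its vehicle values and 1 below them. The log2 fold changes of the 5 genes ran from -0.03 to 0.10, with the smallest adjusted p at 0.885 by the edgeR test, and those of Gins1 and Gins4 changed sign with GC and length offsets.

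The sliding clamp gene Pcna (chr2:132249162-132253314, minus strand), a standard marker of cells in S phase, was at 344.5 and 331 CPM with vehicle and at 321 and 343.5 CPM with 5D. The groups overlapped, and the log2 fold change was -0.02 ± 0.05 (SE), with a 95% confidence interval of the fold from 0.91 to 1.06 and an adjusted p of 0.958 by edgeR's quasi-likelihood test. Its copy Pcna-ps2 took 18.2% to 19.0% of the counts of the pair, a share that moved little between libraries. Rfc1, the large subunit of replication factor C, which opens the clamp and sets it on DNA, was at 113 and 97.3 CPM with vehicle and at 120.4 and 108 CPM with 5D. Rfc2 was at 177 and 182 CPM with vehicle and at 192 and 179.7 CPM with 5D. Neither separated the groups. Rfc4 was at 92.1 and 83.2 CPM with vehicle and at 99.0 and 95.3 CPM with 5D, and Rfc3 at 53.0 and 50.7 CPM with vehicle and at 54.7 and 53.5 CPM with 5D. In these small subunits of the loader both 5D libraries were above both vehicle libraries, with log2 fold changes of 0.15 for Rfc4 and 0.06 for Rfc3. Such a separation upward was met by 18.7% of all tested genes. Rfc5 was at 166 and 171 CPM with vehicle and at 168 and 167 CPM with 5D, and its log2 fold change of -0.01 changed sign with TMM factors and with thinned libraries. The 5 loader genes summed to 601 and 583 CPM with vehicle and to 634 and 603.5 CPM with 5D.

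Polymerase alpha with primase lays down the RNA-DNA primers of both strands. Pola1, its catalytic subunit, was at 80.2 and 77.8 CPM with vehicle and at 79.1 and 84.2 CPM with 5D. Pola2, its accessory subunit, was at 136 and 138 CPM with vehicle and at 141 CPM in both 5D libraries, a small difference without overlap. Prim1, the catalytic primase subunit, gave 85.6 and 93.6 CPM against 89.3 and 92.9 CPM. Its partner Prim2 gave 72.9 and 62.2 CPM against 75.3 and 68.0 CPM, where replicate 1 was the higher library of each group. Pold1, which carries the catalytic site of polymerase delta, was at 222 and 213 CPM with vehicle and at 228 and 208.5 CPM with 5D. Pold2, a regulatory subunit, was at 97.5 and 96.0 CPM with vehicle and at 99.8 and 89.0 CPM with 5D. The 5D libraries of both genes lay on either side of the vehicle libraries. Pole, the catalytic subunit of the leading-strand polymerase epsilon, was at 77.6 and 69.1 CPM with vehicle and at 77.3 and 77.7 CPM with 5D, and Pole2 at 28.3 and 26.3 CPM with vehicle and at 25.8 and 29.2 CPM with 5D. Log2 fold changes of the 8 genes were between -0.04 and 0.08, 7 of 8 were above 0, and the smallest adjusted p was 0.894 by the edgeR test. Pold1 and Pole2, both at 0.01, changed sign when upper quartile factors were computed after filtering.

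Replication protein A binds the exposed single strands as a trimer. Its large subunit gene Rpa1 was at 296 and 304 CPM with vehicle and at 302 and 343 CPM with 5D, so that the higher mean with 5D came from replicate 2. Rpa2 was at 125 and 122 CPM with vehicle and at 125 and 130.3 CPM with 5D, and Rpa3 at 65.7 and 64.1 CPM with vehicle and at 60.5 and 65.5 CPM with 5D. All 3 overlapped between the groups. Lig1, the ligase that seals Okazaki fragments on the lagging strand, was at 252 and 238 CPM with vehicle and at 273 and 252 CPM with 5D, where the lower 5D value was just above the higher vehicle value. Fen1, the nuclease that trims their flaps, was at 255.5 and 241 CPM with vehicle and at 254 and 246 CPM with 5D, with the 5D values between the vehicle values. The log2 fold changes ran from -0.04 for Rpa3 to 0.10 for Rpa1, and the smallest adjusted p was 0.756 by the edgeR test. Fen1, at 0.01, changed sign with factors computed after filtering, and Rpa3 did so with GC and length offsets, at 0.10. Gm10143, which shares sequence with Fen1 on the opposite strand, took 1.24% to 2.37% of the counts of that pair.

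The nucleotide supply genes held the most abundant member. Rrm2 (chr12:24708241-24714146, plus strand), the small subunit of ribonucleotide reductase, which makes deoxyribonucleotides and is present mainly in S phase, was at 1183 and 1160 CPM with vehicle and at 1193 and 1188 CPM with 5D. Both 5D values were above both vehicle values, closely so for vehicle replicate 1, with a log2 fold change of 0.02 ± 0.04 (SE), a 95% confidence interval of the fold from 0.963 to 1.07 and an adjusted p of 0.938 by edgeR's quasi-likelihood test. Rrm1, the large subunit, was at 513 and 493 CPM with vehicle and at 528 and 526.5 CPM with 5D. Tk1, the thymidine kinase of dividing cells, was at 178.5 and 178.4 CPM with vehicle and at 191.5 and 185 CPM with 5D. These 3 genes did not overlap between the groups, where 18.7% of all tested genes lay higher without overlap. Tyms, which makes thymidylate, was at 192 and 189 CPM with vehicle and at 183 and 193 CPM with 5D, with the 5D libraries on either side of the vehicle libraries. The largest log2 fold change of the 4 was that of Tk1, 0.08, with an unadjusted p of 0.170 by the edgeR test. The copies Gm48455 and Gm48445 took 1.53% to 1.75% and 0.278% to 0.435% of the counts of their pairs with Rrm2, and a stretch of Tyms is shared with 71 other annotated genes, so its count is uncertain.

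Among the genes of G1/S control, Uhrf1 (chr17:56303321-56323486, plus strand) had the highest log2 fold change and the smallest p of the 43. UHRF1 binds hemimethylated DNA behind the fork and brings in DNMT1, which copies the methylation onto the new strand. Its level was 338 and 320 CPM with vehicle and 372 and 367 CPM with 5D, means of 329 ± 12.6 and 369.5 ± 3.12 CPM (SD, n = 2 each). Both 5D libraries were above both vehicle libraries, as in 18.7% of all tested genes. The gap was larger than the range within either group, which was not counted over all tested genes. The log2 fold change was 0.17 ± 0.05 (SE), a fold between 1.05 and 1.21 by its 95% interval, with an unadjusted p of 0.00439 and an adjusted p of 0.478 by edgeR's quasi-likelihood test, so it did not pass the correction. The adjusted p ran from 0.105 to 0.678 over the alternatives and was 0.134 with DESeq2 and 0.355 with limma-voom. Without vehicle replicate 2 the log2 fold change was 0.128 and the unadjusted p was 0.0503. Dnmt1, its partner and not a member, was at 429 and 409 CPM with vehicle and at 449 and 399 CPM with 5D, with groups that overlapped. The copy Gm5648 took 0.856% to 0.939% of the counts of its pair with Uhrf1.

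E2f1, the activator of many S phase genes, was at 66.0 and 65.5 CPM with vehicle and at 66.3 and 74.2 CPM with 5D, where only 5D replicate 2 stood apart. Ccne1 and Ccne2 encode the E-type cyclins that activate CDK2 at the entry into S phase. Ccne1 was at 82.9 and 80.6 CPM with vehicle and at 85.0 and 81.7 CPM with 5D, and Ccne2 at 63.7 and 57.2 CPM with vehicle and at 57.6 and 62.4 CPM with 5D. Both cyclin genes overlapped between the groups, with log2 fold changes of 0.03 and -0.01 and adjusted p-values of 0.973 and 0.997 by the edgeR test, and that of Ccne2 changed sign with GC and length offsets.

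The members varied far more among themselves than between groups. Normalized by exon length, Rrm2 was first at 426 CPM per kilobase, followed by Pcna at 139.6 and Mcm5 at 133, and Pole was last at 6.76, a 63.1-fold span. In that order the libraries of Rrm2 did not overlap those of Pcna, while Pcna and Mcm5 overlapped, as did Fen1 with Mcm4 and Mcm4 with Mcm6. The level per kilobase of 38 of the 43 genes lay above the percentile 75 of all tested genes, with a median percentile of 89.4 and a range from 65.1 to 99.4. Within complexes, the subunit genes differed by 2.08-fold in the MCM2-7 ring (Mcm5 over Mcm2), 3.69-fold in GINS (Gins4 over Gins3), 4.11-fold in replication factor C (Rfc4 over Rfc3), 2.56-fold in polymerase alpha-primase (Prim1 over Pola1), and only 1.34-fold in RPA (Rpa3 over Rpa2). The ribonucleotide reductase genes were the most unequal pair, with Rrm2 at 9.11 times the level of Rrm1 per kilobase. These ratios depend on the length used, since all annotated exons were counted, and with the longest transcript in their place the Rrm2 to Rrm1 ratio was 5.72, the ring ratio was 1.72 with Mcm3 lowest, the polymerase alpha-primase ratio was 3.21 with Pola2 in place of Prim1 as the highest, and the RPA ratio was 1.53 with Rpa1 in place of Rpa2 as the lowest.

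**Figure D4:**
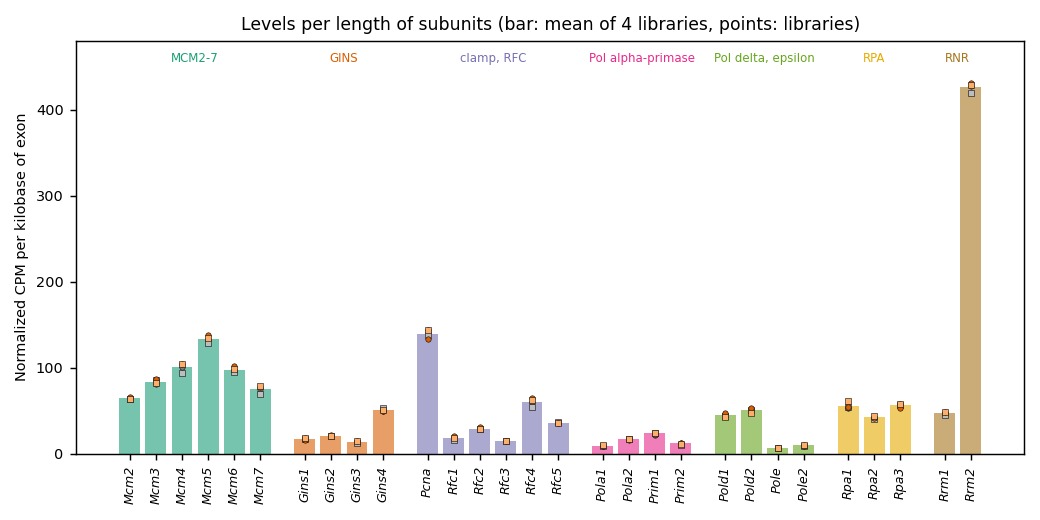
Level per kilobase of exon (normalized CPM per kilobase) of the subunit genes of 7 replication complexes, as the mean of the 4 libraries (bars) with each library as a point. Rrm2 stands at 426 and Pcna and Mcm5 near 140 and 133, and the 4 points of each gene stay close to its bar.

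The other genes of the pathway were taken from a separate list. Of 80 other replication and G1/S genes, 45 had a log2 fold change above 0, the median was 0.014, and 5 were higher and 2 lower at an unadjusted p under 0.05, while 0 passed the adjusted threshold by edgeR's quasi-likelihood test, DESeq2 or limma-voom. Without overlap, 17 of the 80 (21.2%) were higher and 8 (10.0%) lower, beside 18.7% and 18.8% of all tested genes. At an unadjusted p under 0.05 by the edgeR test, 3.5% of all tested genes were higher and 3.84% lower. The 5 higher genes were Brca1 (log2 fold change 0.29), the repair protein that protects stalled forks, Dscc1 (0.25), a subunit of an alternative clamp loader, Rb1 (0.18), the E2F repressor, Topbp1 (0.15), which acts in helicase activation and checkpoint signalling, and Ccna2 (0.12), the S phase cyclin. Brca1 was at 56.5 and 57.9 CPM with vehicle and at 65.1 and 75.2 CPM with 5D. The 2 lower genes were Chtf8 (-0.32), a partner of DSCC1 in the same loader, and Cdk6 (-0.13), a G1 kinase. The adjusted p-values of these 7 genes were between 0.520 and 0.647 by the edgeR test.

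Among 41 genes of mitosis, a later phase of the cell cycle, 32 had a log2 fold change above 0. The median of the 41 was 0.045, close to that of the 43 replication genes. At an unadjusted p under 0.05, 4 were higher: Bub1 (0.25), Ncapg (0.19), Nusap1 (0.16) and Top2a (0.09), with roles in the spindle checkpoint, chromosome condensation, spindle assembly and DNA untangling. Mki67, the gene of the Ki67 antigen that marks dividing cells, was the 1 lower gene, at 503 and 571 CPM with vehicle and at 450.4 and 475 CPM with 5D (log2 fold change -0.21 ± 0.06 (SE), unadjusted p = 0.00347 and adjusted p = 0.443 by the edgeR test). Both 5D libraries of Mki67 lay below both vehicle libraries, as in 4 of the 41 mitosis genes (9.76%), and 13 (31.7%) lay above without overlap. Of all tested genes, 18.8% lay below and 18.7% above without overlap. At an unadjusted p under 0.05 by the edgeR test, 3.84% of all tested genes were lower and 3.5% higher. By edgeR and limma-voom 0 mitosis genes passed the adjusted threshold and by DESeq2 1 did, Mki67. The difference between Mki67 and the replication genes was not tested.

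**Figure D5:**
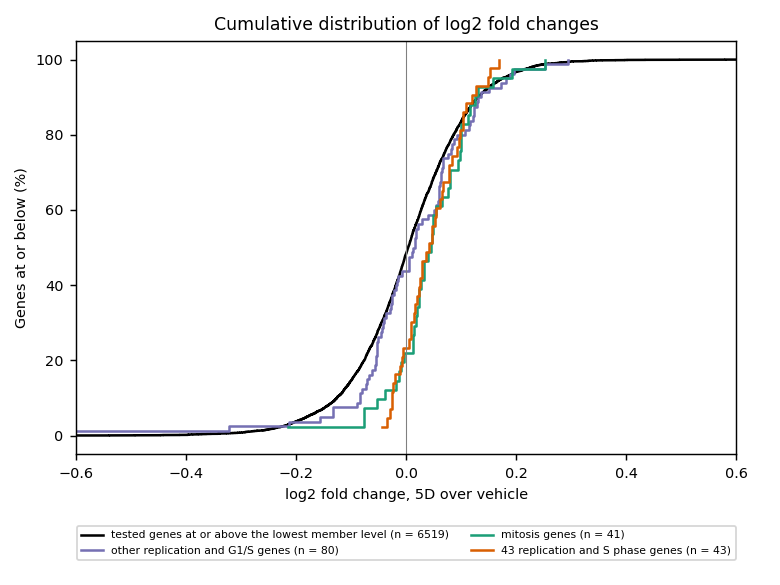
Cumulative share of genes (percent) at or below each log2 fold change of 5D over vehicle, for the 43 replication and S phase genes, 80 other replication and G1/S genes, 41 mitosis genes and the 6519 tested genes at or above the lowest level of a member; the axis is limited to 0.6 in either direction. The curve of the 43 genes crosses 50% at 0.041 and spans only -0.04 to 0.17, and the signs of values near 0 depend on the scaling.

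In 14 of the 43 genes an exon overlapped one of another gene of the table, on the opposite strand in 13 of them. The 13 were Mcm7, Cdc45, Gins2, Rfc2, Rfc4, Rfc5, Pole, Tk1, Lig1, Fen1, Ccne2, Orc1 and Orc6, and Pole2 overlapped on the same strand. Shares of counts are given above only for Gse1 with Gins2 and for Gm10143 with Fen1. The cDNA kit that the study names does not keep strand, so reads of such pairs cannot be told apart.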

How the data were processed

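RNA was sequenced from 4 libraries, 2 of vehicle-treated and 2 of 5D-treated lung ILC2s. The authors made cDNA with a low-input kit and quantified the reads in Partek after alignment with STAR 2.6.1 to mm10 with GENCODE M21 annotation, and per the labels base calling used CASAVA 1.8.2. The values the authors deposited are estimated counts, not normalized, of which only 51.5% to 54.6% in a library were whole numbers (to within 1e-09), and all were rounded here. The design had been written for counts of either kind.

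The members and the other gene lists were chosen with earlier results of these data known. Counts were scaled by upper quartile factors over all genes, and a gene was kept if its normalized counts averaged 1 or more and summed to 10 or more (17650 tested, 4904 left out). The 5D group was compared with the vehicle group in edgeR 4.0.16 (R 4.3.3) with the quasi-likelihood test, two-sided and without covariates, and p-values were adjusted by the Benjamini-Hochberg method over all genes tested. The common biological coefficient of variation was 8.51%, and each test had 11.4 degrees of freedom. All p-values in the text come from this model fitted across all genes, unless DESeq2 1.42.0 or limma 3.58.1 is named. Intervals and standard errors come from the same fit, and a standard error is the log2 fold change over the square root of its F statistic. Levels per kilobase divide by the union of annotated exons. Genes with near-identical stretches were found by BLAST 2.17.0 (stretches of at least 150 nt at 95% identity). Promoter sequences are from RefSeq, GRCm38.p6. Values are given for all 43 members; fold changes, standard errors and p-values in full were set for the MCM2-7 genes and for members with an unadjusted p under 0.05, genes of other lists were named only at an unadjusted p under 0.05, and statistics of Pcna, Rrm2, Tk1, Mki67 and Dnmt1 were added with their values known. Protein sequences were not analysed here. The code was tested on simulated data.

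The alternatives were TMM factors, DESeq2 size factors, upper quartile factors after filtering, the DESeq2 Wald test, limma-voom, no filter, filterByExpr, a replicate block, loess offsets (span 0.5) for GC content and length, libraries thinned to 20096513 counts, motifs within 100 bases of the start, the longest transcript as length, and leaving out each library, in which case the lone library of a group was assumed to vary like the others. The replicate numbers do not pair the libraries, since the labels give them no meaning and there are only 2 pairs. Plots used matplotlib 3.10.9 and Python 3.11.15.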

Additional observations from a re-analysis of the deposited data

How the results depend on the processing

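Of the log2 fold changes of the 43 genes, 419 of 430 values under 10 alternatives other than leaving out a library kept their direction and their side of the adjusted threshold, and 11 values of 9 genes changed sign. With TMM factors Rfc5 was at 0.0008 and Orc6 at 0.0029, and with upper quartile factors after filtering Pold1 was at -0.0068, Pole2 at -0.0041 and Fen1 at -0.0031. With GC and length offsets Gins1 was at 0.0012, Gins4 at 0.0007, Rpa3 at 0.1031, Ccne2 at 0.0592 and Orc6 at 0.0045, and with thinned libraries Rfc5 was at 0.0003. The members higher at an unadjusted p under 0.05 numbered 2 with TMM factors, 2 with limma-voom, 2 without a filter, 2 with thinned libraries, 3 with offsets and 3 with the replicate block, in place of 1, and the cause was not tested. When each library was left out in turn they numbered 0 (without vehicle replicate 2) to 7 (without vehicle replicate 1). Libraries with the same replicate number had deviations from their group means that correlated at 0.00536 over 12331 genes, and the replicate block added Mcm7 and Mcm10 and moved no call at the adjusted threshold in the 43 genes or the other lists. Among the other replication and G1/S genes, leaving out a library gave 41 to 45 genes with a log2 fold change above 0. Among the mitosis genes it gave 27 to 31. With all libraries, DESeq2 called 1 mitosis gene at the adjusted threshold (Mki67). Motifs within 100 bases before the start were found in 4 members in place of 14, in a window that is shorter by construction. Of the 43 genes, 21 kept their direction under every alternative and 22 changed sign when 1 library was left out, over these ranges: Mcm3 (-0.0284 to 0.0621), Cdc6 (-0.1146 to 0.0699), Cdc45 (-0.0049 to 0.0311), Gins1 (-0.1365 to 0.0646), Gins2 (-0.0062 to 0.0723), Gins4 (-0.0749 to 0.0184), Pcna (-0.0772 to 0.0195), Rfc5 (-0.031 to 0.0081), Pola1 (-0.0007 to 0.0863), Prim1 (-0.042 to 0.0872), Prim2 (-0.0273 to 0.2002), Pold1 (-0.065 to 0.068), Pold2 (-0.1245 to 0.0429), Pole (-0.0053 to 0.1624), Pole2 (-0.085 to 0.0904), Tyms (-0.0595 to 0.011), Fen1 (-0.0342 to 0.0492), Rpa3 (-0.1043 to 0.0084), Ccne1 (-0.0055 to 0.055), Ccne2 (-0.0884 to 0.0663), Orc1 (-0.0038 to 0.025) and Orc6 (-0.0328 to 0.0138). Gins1, with as few as 498 counts in a library, had the widest interval of the 43, 0.269 to either side on the log2 scale, against 0.0767 for Rrm2. The part of depth in this width was not tested.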
